A study of Mus musculus with 6 samples.

Results

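The genes described here are 10 markers of late neutrophil maturation, Retnlg, Mmp8, Mmp9, Il1b, Trem1, Padi4, Stfa1, Stfa2, BC100530 and Wfdc21, taken by GENCODE M21 symbol from a gene count table of 43629 Ensembl IDs. All 10 were in the table and all 10 passed the filter on low counts. They were measured by poly-A selected RNA-seq in leukaemic marrow from C57BL/6 mice at end point, thawed and sorted for c-kit+ cells. Every mouse carried the Cbfb-MYH11 knockin, the fusion that inversion of chromosome 16 makes in human acute myeloid leukaemia. Gata2+/f replicates 7, 9 and 11 carried in addition 1 Gata2 allele that the labels write as f, and Gata2+/+ replicates 3, 5 and 6 had 2 wild-type alleles. The labels give no age, no batch and no Cre driver, and do not say what the f allele removes. They also do not say that each library is a separate animal, so p-values measure the spread between these samples. The question is which transcripts differ when 1 Gata2 allele is altered in this leukaemia.

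Neutrophils fill their granules in sequence as they mature. Myeloblasts and promyelocytes make the primary (azurophil) granule proteases and myeloperoxidase, myelocytes and metamyelocytes make the secondary (specific) granule proteins such as lactoferrin, and band and segmented cells make gelatinase granules and the receptors and cytokines of the mature cell. The genes below belong to that last step. Mmp8 is usually placed with the specific granules in human cells.

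Totals ran from 53789568 to 67854631 expected counts per library, so that 3 counts correspond to 0.0424 to 0.0600 CPM (counts relative to the TMM-scaled library total). Gata2, the targeted gene, had 498, 273 and 264 CPM in Gata2+/f replicates 7, 9 and 11, against 886, 887 and 737 CPM in Gata2+/+ replicates 3, 5 and 6. Kit, the receptor used for the sort, had 193, 175 and 328 CPM in Gata2+/f, against 826, 1222 and 1466 CPM in Gata2+/+. Libraries are given in this order of replicates throughout.

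All 10 late neutrophil genes had a positive fitted difference, Gata2+/f over Gata2+/+, as did 51.1% of all genes tested, and none passed the edgeR test. Fitted log2 fold changes ran from 1.36 for Trem1 to 3.04 for Retnlg, with a median of 2.10, against a median of 0.02 over the 15432 genes tested. Leaving out Gata2+/+ replicate 5 moved the median of the 10 to 3.61, and leaving out Gata2+/f replicate 11 moved it to 1.59. By edgeR's quasi-likelihood test with Benjamini-Hochberg adjustment, 0 of the 10 were called, as were 0% of all genes tested. At an unadjusted p under 0.05, 6 of the 10 were higher, against 11.1% of all genes. DESeq2's Wald test called 5 of the 10 higher (Padi4, Wfdc21, Mmp9, Il1b and Retnlg), against 6.16% of all genes higher and 5.7% lower, while limma voom called 0 of the 10 and 0.0518% of all genes higher. The newer form of edgeR's test also called 0 of the 10, and 0.0842% of all genes higher. The 3 Gata2+/f libraries lay above the 3 Gata2+/+ libraries for 4 of the 10 genes (Mmp9, Il1b, Padi4 and Wfdc21), against 13.1% of all genes. That count was 10 without Gata2+/f replicate 7, against 20.4% of all genes, and 8 without Gata2+/+ replicate 5, against 21.5%. In bulk RNA, more cells of a type and more RNA per cell cannot be told apart.

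**Figure D1:**
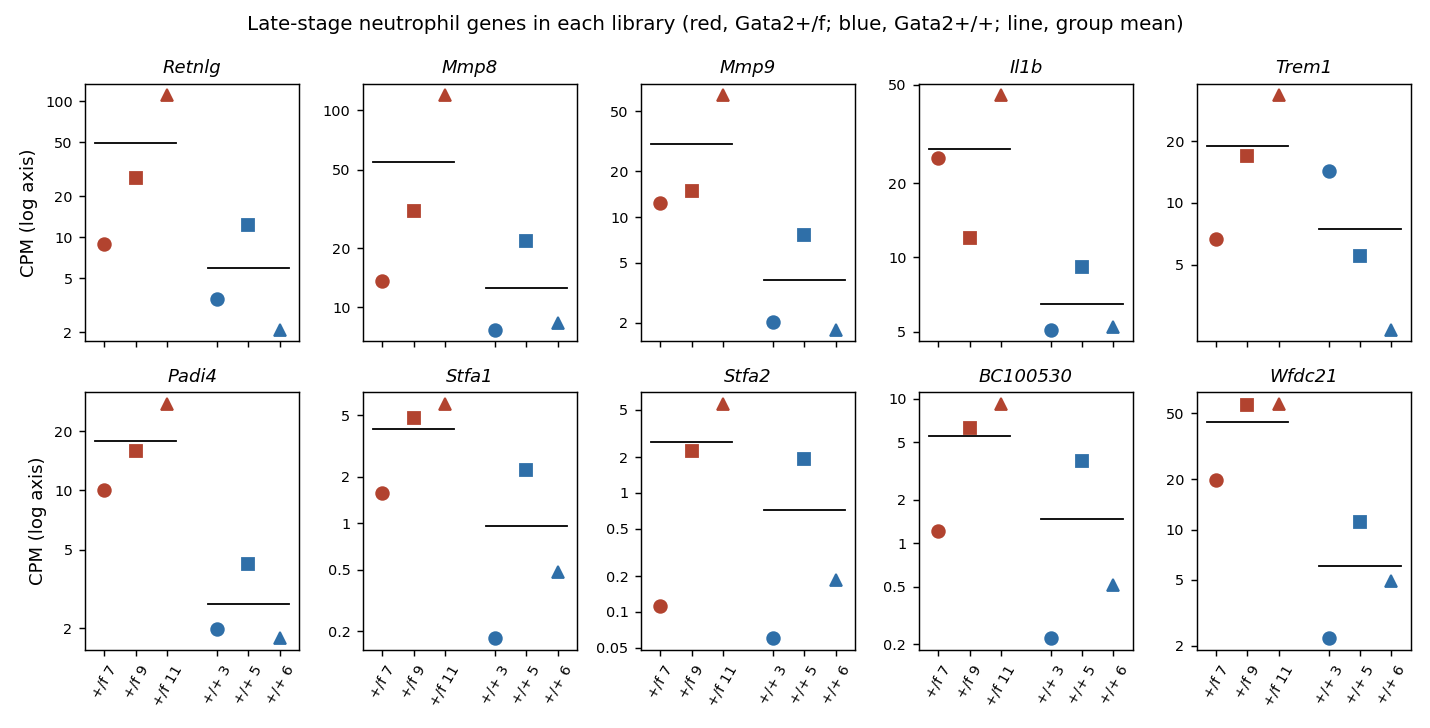
CPM (log axis) of the 10 late-stage neutrophil genes in each library, Gata2+/f in red and Gata2+/+ in blue, with a line at each group mean. Gata2+/f replicate 11 is the highest library for all 10 genes, and Gata2+/+ replicate 5 is the highest Gata2+/+ library for 9.

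The libraries fell in nearly the same order for most of the genes. Gata2+/f replicate 11 was highest of the 6 libraries for 10 of 10 genes, and the order replicate 7, then 9, then 11 held for 9 of 10, Il1b being the exception. Among the Gata2+/+ libraries replicate 5 was highest for 9 of 10 genes, Trem1 being the exception, and it exceeded Gata2+/f replicate 7 for 5 of 10. Summed over the 10 genes the level was 99.6, 187 and 477 CPM in Gata2+/f, against 37.4, 79.4 and 27.7 CPM in Gata2+/+. These genes were thus a small share of each library, 0.0104%, 0.0208% and 0.0507% of counts in Gata2+/f and 0.00307%, 0.00819% and 0.00266% in Gata2+/+. The median SD of log2 CPM within a group was 1.23 in Gata2+/f and 1.22 in Gata2+/+ over the 10 genes, against 0.49 and 0.35 over all genes tested.

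Levels between genes are compared here per kilobase of annotated exon. In Gata2+/f, Wfdc21 had the highest mean of the 10 at 102 ± 48.6 CPM per kb (SD, n = 3 here and throughout), followed by Retnlg at 82.5 ± 91.4 and Mmp8 at 22.5 ± 23.4 CPM per kb. Padi4 had the lowest, at 3.67 ± 1.83 CPM per kb. In Gata2+/+, Wfdc21 and Retnlg again led, at 14.0 ± 10.51 and 10.1 ± 9.28 CPM per kb, and Padi4 was again the lowest at 0.551 ± 0.283 CPM per kb. The SDs are between libraries and do not measure this order, since all genes were measured in the same libraries. Wfdc21 was above Retnlg except in Gata2+/f replicate 11 (131 against 187 CPM per kb) and Gata2+/+ replicate 3 (5.11 against 5.97). Retnlg was above Mmp8 in every library, by least in Gata2+/+ replicate 6 (3.52 against 3.45 CPM per kb). The order was not tested. Ranked among the genes tested, the level of Retnlg per kb stood at percentiles 78.1, 93.3 and 98.5 in Gata2+/f, against 57.4, 84.9 and 47 in Gata2+/+. Gata2+/+ replicate 5 thus stood above Gata2+/f replicate 7.

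The gelatinase and collagenase genes come first. Mmp9 encodes gelatinase B, which gives the gelatinase granule its name and cleaves denatured collagen and type IV collagen. It lies on chromosome 2 of GRCm38 from 164940780 to 164955850 on the forward strand. Mmp9 had 12.5, 14.8 and 63.5 CPM in Gata2+/f, against 2.04, 7.59 and 1.81 CPM in Gata2+/+. The groups did not overlap, and most of the spread in Gata2+/f came from the high value of replicate 11. For Mmp9 the fitted difference was 7.92-fold (95% interval 2.01 to 31.3; log2 2.99, SE 0.85; edgeR adjusted p = 0.131, DESeq2 adjusted p = 0.00381). Without Gata2+/f replicate 11 the log2 fold change was 1.86, and without Gata2+/+ replicate 5 it was 3.97.

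Mmp8, neutrophil collagenase, which cuts fibrillar collagen, lies on chromosome 9 from 7558456 to 7568485 on the forward strand. Mmp8 had 13.6, 30.7 and 119 CPM in Gata2+/f, against 7.72, 21.7 and 8.36 CPM in Gata2+/+. The groups overlapped, since Gata2+/+ replicate 5 lay above Gata2+/f replicate 7. For Mmp8 the fitted difference was 4.32-fold (95% interval 1.17 to 15.98; log2 2.11, SE 0.81; edgeR adjusted p = 0.191, DESeq2 adjusted p = 0.0501), and the log2 value was 0.84 without Gata2+/f replicate 11.

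RefSeq (GRCm38.p6) gave upstream sequence for 7 of the 10 genes, and that of Mmp8 is shown because it holds matches to 2 of the 4 motifs searched. It is the 250 bases before the start annotated by RefSeq, chr9:7558179-7558428 on the forward strand, with the matches in capitals.
Mmp8 upstream: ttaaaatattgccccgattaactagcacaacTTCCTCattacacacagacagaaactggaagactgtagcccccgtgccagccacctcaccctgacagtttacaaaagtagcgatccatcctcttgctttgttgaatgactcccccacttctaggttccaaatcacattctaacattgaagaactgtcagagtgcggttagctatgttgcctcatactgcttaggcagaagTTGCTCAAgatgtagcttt
The capitals at positions -219 to -214 from the start are GAGGAA read on the other strand, a core of the PU.1 site, and those at -19 to -12 match TTGCNNAA, a C/EBP-type site. PU.1 and C/EBP factors are the main regulators of granulocyte genes. On both strands, TTGCNNAA was found in 3 of the 7 upstream sequences (Mmp8, Stfa1 and Retnlg) and in 9.6% of the 32851 in the table. GAGGAA was found in 4 of 7 (Mmp8, Stfa1, Stfa2 and Trem1) and in 23.3% of all. TATAAA, read only in the direction of each gene, was found in 2 of 7 (Il1b and Padi4, at -31 to -26 in both) and in 7.6% of all. A degenerate NF-kappaB motif on both strands was found in 0 of 7 and in 1.2% of all. No match overlapped another. Positions are relative to the RefSeq start. GENCODE M21 starts Padi4, Stfa1 and Stfa2 inside their windows, and the matches in these windows lie past those starts. A match describes the letters of the window and not binding.

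In the wider matrix metalloproteinase and inhibitor list, which includes Mmp8 and Mmp9, 12 of 21 genes were tested, 7 positive and 5 negative (median log2 fold change 0.17). DESeq2 called 2 higher and 1 lower, against 6.16% and 5.7% of all genes, and edgeR called 0. Mmp25, the membrane-anchored leukolysin of neutrophils, had 5.53, 3.49 and 10.9 CPM in Gata2+/f, against 0.260, 1.17 and 0.218 CPM in Gata2+/+ (log2 3.59, SE 0.84; edgeR adjusted p = 0.1003, DESeq2 adjusted p = 0.000143). Timp3, a matrix-bound inhibitor of these enzymes, had 0.113, 0.334 and 0.732 CPM in Gata2+/f, against 103, 1.62 and 38.4 CPM in Gata2+/+ (log2 −6.92, 95% interval −10.40 to −3.43; edgeR adjusted p = 0.0966, DESeq2 adjusted p = 6.63e-08). Thus the neutrophil enzymes Mmp8, Mmp9 and Mmp25 had positive differences, while the family as a whole had no common direction.

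Retnlg encodes resistin-like gamma, a small secreted protein abundant in mouse neutrophils, and lies on chromosome 16 from 48872621 to 48874496 on the forward strand. Retnlg had 8.86, 27.4 and 111 CPM in Gata2+/f, against 3.54, 12.3 and 2.09 CPM in Gata2+/+. Replicate 11 was 12.5-fold above replicate 7 within Gata2+/f, and replicate 5 was 5.87-fold above replicate 6 within Gata2+/+, so the groups overlapped. For Retnlg the fitted difference was 8.21-fold (95% interval 1.58 to 42.7; log2 3.04, SE 1.02; edgeR adjusted p = 0.161, DESeq2 adjusted p = 0.0125), from 1.62 on the log2 scale without Gata2+/f replicate 11 to 4.11 without Gata2+/+ replicate 5. Retnla, the resistin-like gene of alternatively activated macrophages on the same chromosome, had the opposite sign, with 0.0141, 0.986 and 1.57 CPM in Gata2+/f against 1.94, 22.5 and 3.85 CPM in Gata2+/+ (log2 −3.46, SE 1.42; edgeR adjusted p = 0.209, DESeq2 adjusted p = 0.0392). Retn itself stayed at 15 counts or fewer in every library, and Retnlb at 2 or fewer.

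Padi4 encodes peptidylarginine deiminase 4, which converts histone arginine to citrulline and is needed for neutrophil extracellular traps in mouse. It lies on chromosome 4 from 140745865 to 140774236 on the reverse strand. Padi4 had 10.1, 15.8 and 27.4 CPM in Gata2+/f, against 1.98, 4.24 and 1.78 CPM in Gata2+/+. Every Gata2+/f library was above every Gata2+/+ library, and its p was the smallest of the 10 genes. For Padi4 the fitted difference was 6.66-fold (95% interval 2.76 to 16.1; log2 2.74, SE 0.55; edgeR adjusted p = 0.0966, DESeq2 adjusted p = 3.71e-05).

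The deiminase genes next to Padi4 on chromosome 4 did not share its direction. Padi2 had 4.68, 8.44 and 12.0 CPM in Gata2+/f, against 26.5, 68.1 and 115 CPM in Gata2+/+ (log2 −3.06, SE 0.59; edgeR adjusted p = 0.0966, DESeq2 adjusted p = 3.97e-05). Padi1 had 1.40, 3.91 and 6.76 CPM in Gata2+/f, against 13.9, 31.7 and 9.81 CPM in Gata2+/+ (log2 −2.20, SE 0.68; edgeR adjusted p = 0.145, DESeq2 adjusted p = 0.0169). Padi3 had 61.3, 143 and 63.6 CPM in Gata2+/f and 108, 63.9 and 165 CPM in Gata2+/+, with overlapping groups. Padi6, the oocyte deiminase, was too low to test.

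**Figure D2:**
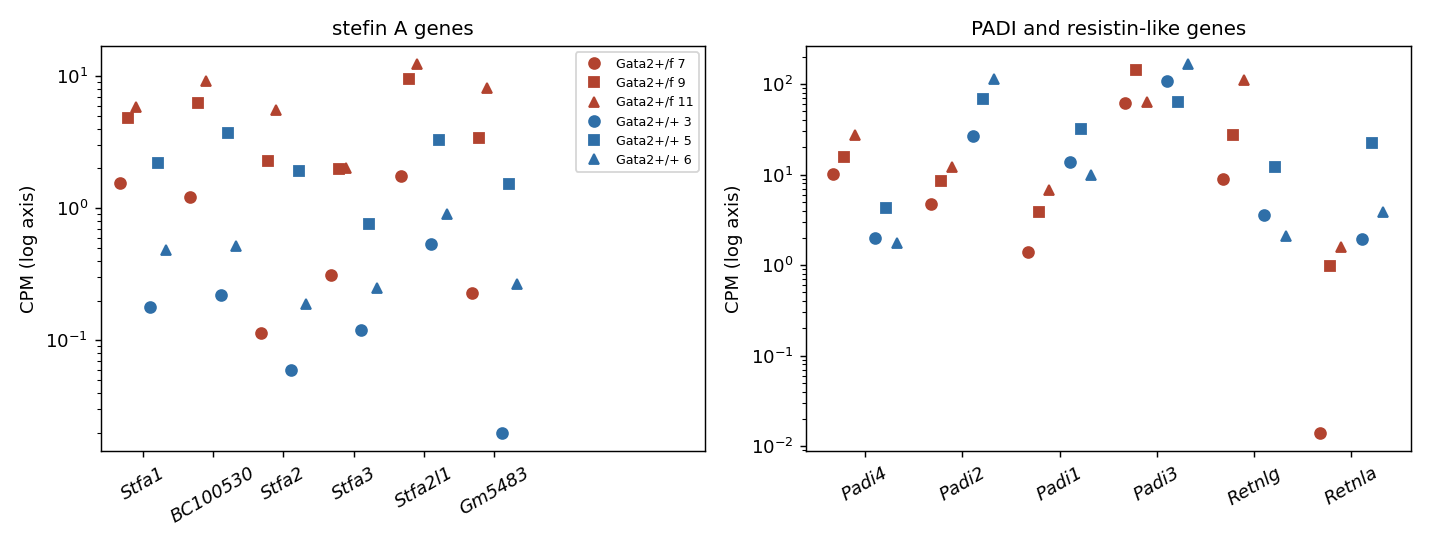
CPM (log axis) of stefin A genes (left) and of deiminase and resistin-like genes (right) in each library, Gata2+/f in red and Gata2+/+ in blue. The stefin A genes share an order of libraries in which Gata2+/+ replicate 5 lies above Gata2+/f replicate 7, and Padi4 lies above in Gata2+/f where Padi2 and Padi1 lie below.

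Wfdc21, a secreted whey acidic protein domain gene on chromosome 11 from 83746940 to 83752642 on the forward strand, had 19.9, 56.0 and 56.8 CPM in Gata2+/f, against 2.22, 11.1 and 4.91 CPM in Gata2+/+. The groups did not overlap, and replicates 9 and 11 were level. For Wfdc21 the fitted difference was 7.27-fold (95% interval 2.48 to 21.3, log2 2.86, SE 0.67, edgeR adjusted p = 0.1003, DESeq2 adjusted p = 0.000538). On leaving out each library, the log2 value ran from 2.51 without Gata2+/+ replicate 3 to 3.62 without Gata2+/+ replicate 5. Among 6 tested genes of its family, Wfdc21 included, 3 were positive and 3 negative. Slpi, the secretory leukocyte protease inhibitor that blocks neutrophil elastase, had 5.66, 14.5 and 11.6 CPM in Gata2+/f, against 2.84, 2.42 and 1.12 CPM in Gata2+/+ (log2 2.32, SE 0.54; edgeR adjusted p = 0.1003, DESeq2 adjusted p = 0.000507). Wfdc17 had overlapping groups (log2 1.34, SE 0.52; edgeR adjusted p = 0.194). Wfdc5 had 0, 0 and 2 counts in Gata2+/f, against 82, 20 and 16 counts in Gata2+/+.

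Il1b, the inflammatory cytokine that caspase-1 cleaves to its active form, lies on chromosome 2 from 129364570 to 129371139 on the reverse strand. Il1b had 25.2, 12.0 and 45.3 CPM in Gata2+/f, against 5.10, 9.14 and 5.22 CPM in Gata2+/+. The groups did not overlap, and it was the 1 gene of the 10 for which Gata2+/f replicate 9, not 7, was the lowest of its group. For Il1b the fitted difference was 4.24-fold (95% interval 1.82 to 9.89; log2 2.08, SE 0.52; edgeR adjusted p = 0.111, DESeq2 adjusted p = 0.00388). An antisense gene, Il1bos, overlaps it, with 277, 597 and 38 counts in Gata2+/f and 36, 100 and 109 counts in Gata2+/+. The library kit keeps strand, but the strand setting of the counting is not given in the sources used here, so reads of this pair may not be separated. In Gata2+/f replicate 9 the antisense count was close to that of Il1b itself, 719, while in replicate 11 it was 38 against 3029.

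The IL-1 pathway list, which includes Il1b, had no common direction, with 11 of 22 tested genes positive and 11 negative and a median log2 fold change of 0.09. DESeq2 called 4 higher and 0 lower, against 6.16% and 5.7% of all genes, and edgeR 0. Il18rap, a chain of the IL-18 receptor, had 15.4, 24.0 and 28.6 CPM in Gata2+/f, against 3.56, 8.73 and 4.94 CPM in Gata2+/+ (log2 1.98, SE 0.44; edgeR adjusted p = 0.0966, DESeq2 adjusted p = 0.000655). Il18r1, another chain of that receptor, went the other way. It had 1.43, 2.69 and 5.69 CPM in Gata2+/f, against 13.1, 6.32 and 9.20 CPM in Gata2+/+ (log2 −1.54, SE 0.58, edgeR adjusted p = 0.188, DESeq2 adjusted p = 0.0675). Il1r2, a decoy receptor of mature neutrophils, had 3.76, 8.57 and 14.2 CPM in Gata2+/f, against 1.66, 1.92 and 3.19 CPM in Gata2+/+ (edgeR adjusted p = 0.136, DESeq2 adjusted p = 0.00941). Casp1, which encodes caspase-1, had 12.8, 24.4 and 27.2 CPM in Gata2+/f, against 3.38, 10.7 and 3.68 CPM in Gata2+/+ (edgeR adjusted p = 0.137, DESeq2 adjusted p = 0.0145).

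Trem1 encodes an activating receptor of neutrophils and monocytes that signals through the adaptor Tyrobp (DAP12), and lies on chromosome 17 from 48232768 to 48246924 on the forward strand. Trem1 had 6.71, 16.9 and 33.4 CPM in Gata2+/f, against 14.4, 5.53 and 2.41 CPM in Gata2+/+. It was the gene of the 10 with the smallest difference, and its highest Gata2+/+ library was replicate 3, which was the lowest of the Gata2+/+ libraries for 6 of the 10. For Trem1 the fitted difference was 2.56-fold (95% interval 0.743 to 8.82; log2 1.36, SE 0.77; edgeR adjusted p = 0.323, DESeq2 adjusted p = 0.221). The log2 value was 0.71 without Gata2+/f replicate 11 and 2.299 without Gata2+/+ replicate 3. In the TREM list, which includes Trem1, all 10 genes were positive (median log2 fold change 1.19). DESeq2 called 3 of them higher, Treml4, Trem3 and Card9, against 6.16% of all genes. Treml4 had 14.3, 5.26 and 8.13 CPM in Gata2+/f, against 0.260, 1.70 and 0.389 CPM in Gata2+/+ (log2 3.55, SE 0.83; edgeR adjusted p = 0.1003). Trem3 had 13.4, 42.1 and 25.6 CPM in Gata2+/f, against 2.18, 10.1 and 4.27 CPM in Gata2+/+ (log2 2.29, SE 0.65; edgeR adjusted p = 0.131). Tyrobp had overlapping groups, with 100.1 to 224 CPM in Gata2+/f and 60.5 to 120.2 CPM in Gata2+/+.

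Stfa1, Stfa2 and BC100530 belong to the stefin A cluster of chromosome 16, whose products are cytosolic inhibitors of cysteine cathepsins. Stfa1 lies from 36276951 to 36285373 on the forward strand, BC100530 from 36359382 to 36367748 and Stfa2 from 36403992 to 36408457, both on the reverse strand. Stfa1 had 1.56, 4.81 and 5.89 CPM in Gata2+/f, against 0.180, 2.21 and 0.483 CPM in Gata2+/+ (log2 2.09, SE 0.95; edgeR adjusted p = 0.242). BC100530 had 1.22, 6.27 and 9.21 CPM in Gata2+/f, against 0.220, 3.69 and 0.514 CPM in Gata2+/+ (log2 1.91, SE 1.12; edgeR adjusted p = 0.341). In both, Gata2+/+ replicate 5 lay above Gata2+/f replicate 7 and the groups overlapped. On leaving out each library, the log2 value of Stfa1 ran from 1.63 without Gata2+/+ replicate 3 to 3.5996 without Gata2+/+ replicate 5. That of BC100530 ran from 1.35 without Gata2+/f replicate 11 to 3.90 without Gata2+/+ replicate 5.

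The counts of Stfa1 and BC100530 shared reads. Each had fractional counts in Gata2+/f replicate 7, 109.70 and 86.30, yet the pair summed to 196, and it summed to 663 and 1009.96 in replicates 9 and 11, and to 20, 347 and 64 in Gata2+/+. The coding sequences of the 2 genes are printed because they show what RSEM had to separate. They are 294 bases each, from transcripts Stfa1-202 and BC100530-201 of GENCODE M21, and the capitals mark the 6 bases that differ.
Stfa1: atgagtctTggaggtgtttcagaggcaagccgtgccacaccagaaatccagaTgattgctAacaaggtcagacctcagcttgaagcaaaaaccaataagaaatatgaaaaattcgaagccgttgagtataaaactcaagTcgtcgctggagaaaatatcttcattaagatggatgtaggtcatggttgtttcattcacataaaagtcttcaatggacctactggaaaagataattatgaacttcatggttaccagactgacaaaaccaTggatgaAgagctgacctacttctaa
BC100530: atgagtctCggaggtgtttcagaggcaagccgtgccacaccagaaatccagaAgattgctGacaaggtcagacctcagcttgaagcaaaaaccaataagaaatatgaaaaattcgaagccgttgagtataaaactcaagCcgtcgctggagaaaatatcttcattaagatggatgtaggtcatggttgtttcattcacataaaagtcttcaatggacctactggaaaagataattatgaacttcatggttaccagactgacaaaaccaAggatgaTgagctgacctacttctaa
They are 98.0% identical, and 18.5% of the 50-base windows of Stfa1 transcripts also occur in those of BC100530. Taken as 1 feature, a choice made after the fractional counts had been seen, the pair had 2.77, 11.1 and 15.1 CPM in Gata2+/f, against 0.400, 5.91 and 0.997 CPM in Gata2+/+ (log2 1.99, SE 1.04; edgeR adjusted p = 0.290, DESeq2 adjusted p = 0.143). Stfa1 held 37.5% to 56.0% of the pair's reads over the 6 libraries.

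Stfa2 had 8, 136 and 374 counts in Gata2+/f, against 3, 113 and 12 counts in Gata2+/+, or 0.113, 2.27 and 5.59 CPM against 0.0600, 1.92 and 0.187 CPM. It was the most variable of the 10 genes, 49.4-fold higher in replicate 11 than in replicate 7 within Gata2+/f. Its fitted log2 fold change of 1.87 (SE 1.47, 95% interval −1.55 to 5.30; edgeR adjusted p = 0.466, DESeq2 adjusted p = 0.346) ran from 0.72 without Gata2+/f replicate 11 to 4.38 without Gata2+/+ replicate 5. Its coding sequence is 96.5% identical to that of Stfa2l1 and 74.7% identical to that of Stfa1.

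The upstream sequences of Stfa1 and Stfa2 are shown because they are alike as well. Stfa1 is chr16:36276898-36277147 on the forward strand and Stfa2 is chr16:36408364-36408613 on the reverse strand, 250 bases each of GRCm38.p6, with motif matches in capitals. They are upstream of the RefSeq starts. GENCODE M21 starts both genes inside these windows, Stfa1 at 36276951 and Stfa2 at 36408457, and all the marked matches lie past those starts.
Stfa1 upstream: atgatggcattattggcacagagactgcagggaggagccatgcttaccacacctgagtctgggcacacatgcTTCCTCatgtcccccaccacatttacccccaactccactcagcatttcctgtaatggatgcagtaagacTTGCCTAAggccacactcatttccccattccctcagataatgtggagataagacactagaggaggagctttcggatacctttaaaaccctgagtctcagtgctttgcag
Stfa2 upstream: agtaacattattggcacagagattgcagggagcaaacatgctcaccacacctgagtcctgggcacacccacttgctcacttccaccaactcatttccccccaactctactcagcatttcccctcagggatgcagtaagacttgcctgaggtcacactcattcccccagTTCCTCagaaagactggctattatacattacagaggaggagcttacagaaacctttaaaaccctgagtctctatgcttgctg
In a global alignment they were 80.6% identical, whereas the 20 other pairs among the 7 upstream sequences were 41.9% to 50.2% identical. Stfa1 holds a TTGCNNAA match at -109 to -102 and a GAGGAA match at -178 to -173, and Stfa2 a GAGGAA match at -82 to -77, both GAGGAA matches on the other strand.

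Others of the cluster had a similar order of libraries. Stfa2l1 had 1.77, 9.46 and 12.3 CPM in Gata2+/f, against 0.540, 3.29 and 0.903 CPM in Gata2+/+ (log2 2.31, SE 0.91; edgeR adjusted p = 0.198, DESeq2 adjusted p = 0.0462). Gm5483 had 0.226, 3.38 and 8.19 CPM in Gata2+/f, against 0.0200, 1.53 and 0.265 CPM in Gata2+/+. Stfa3 had 0.311, 1.97 and 2.02 CPM in Gata2+/f, against 0.120, 0.766 and 0.249 CPM in Gata2+/+. The family list includes Stfa1, Stfa2 and BC100530 themselves. Of its 7 tested genes 6 were positive, against 51.1% of all genes, and Cstb was negative. DESeq2 called 1 of the 7 higher, against 6.16% of all genes. Stfa2 and Stfa2l1 share 50-base windows too, 14.7% of those of Stfa2, but the expected counts of both were whole in all 6 libraries.

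Over the 6 libraries, Pearson's r of log2 CPM between pairs of the 10 genes ranged from 0.47 to 0.98 with a median of 0.87 over 45 pairs. These are descriptions over libraries that share their groups. Stfa1 and BC100530, which share reads, had the highest r, followed by Retnlg with Mmp8 at 0.98 and Mmp9 with Padi4 at 0.97. Trem1 was the least like the others, with r = 0.64 to the mean of the other 9, against 0.98 for Retnlg, and Il1b had 0.83. Outside the 10, the 8 genes whose pattern was most like their mean had r from 0.991 to 0.998 over 6 libraries. Among them were Sfxn5, Nfe2l3, Ugt1a7c, H2-Q7, Pik3r6, Rab27a and App. Rab27a, a GTPase of granule exocytosis, had 41.1, 53.4 and 72.6 CPM in Gata2+/f, against 31.0, 40.4 and 31.1 CPM in Gata2+/+. Ugt1a7c and H2-Q7 belong to families whose copies share reads.

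The late genes were then set beside earlier granule stages. Primary granule genes had a median log2 fold change of 1.60 over 8 tested genes, 6 positive and 2 negative, and secondary granule genes a median of 3.42 over 10, all positive, beside 2.10 for the 10 late genes. DESeq2 called 0 of 8 primary, 10 of 10 secondary and 5 of 10 late genes higher, against 6.16% of all genes, and edgeR called 0 in each, as over all genes. All Gata2+/f libraries lay above all Gata2+/+ libraries for 0 of 8 primary, 9 of 10 secondary and 4 of 10 late genes, against 13.1% of all genes. Itgb2l, an integrin chain gene, had 22.5, 19.1 and 35.8 CPM in Gata2+/f, against 0.900, 1.57 and 1.40 CPM in Gata2+/+ (log2 4.32, SE 0.43; edgeR adjusted p = 0.0509). Ltf, lactoferrin, had 561, 374 and 802 CPM in Gata2+/f, against 19.0, 42.7 and 26.2 CPM in Gata2+/+, a difference of 19.8-fold. Elane, neutrophil elastase, had 259.6, 1480 and 256 CPM in Gata2+/f and 78.2, 302 and 180.4 CPM in Gata2+/+, with overlapping groups.

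**Figure D3:**
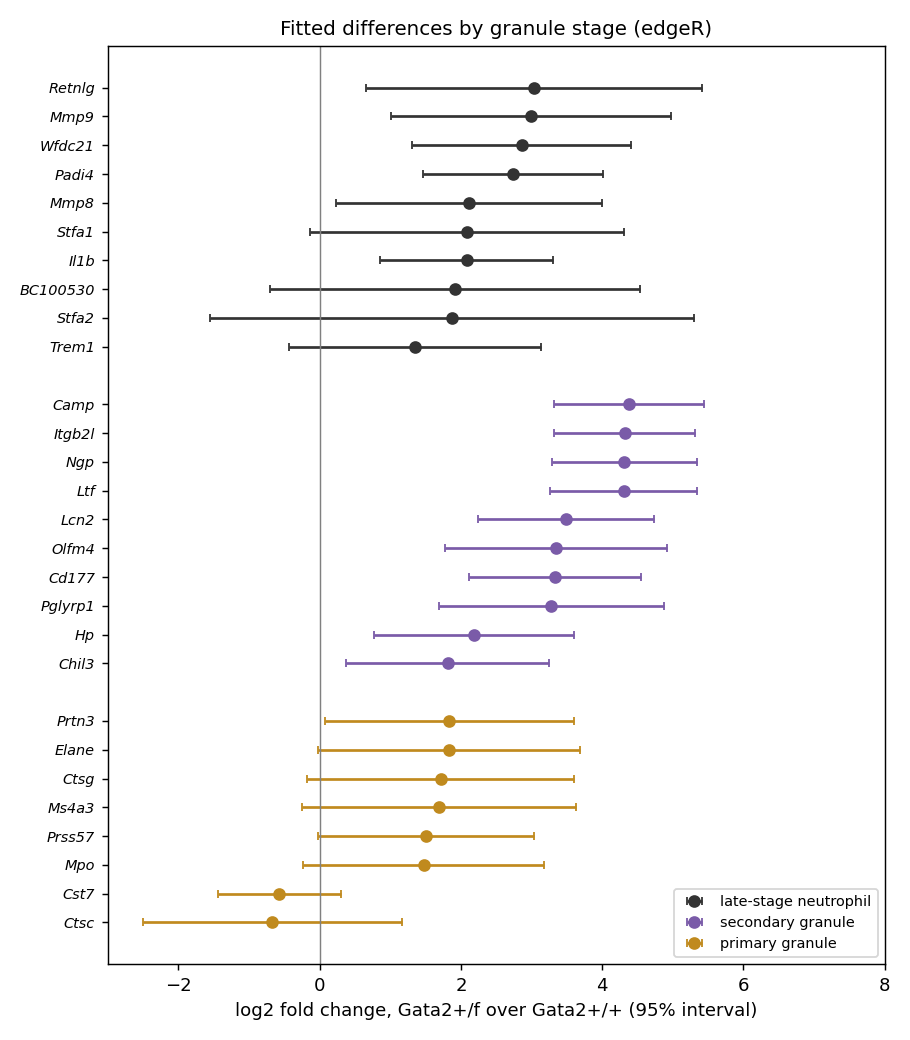
Fitted log2 fold change, Gata2+/f over Gata2+/+, with its 95% interval for each late-stage, secondary granule and primary granule gene. Late-stage genes lie between 1.36 and 3.04 with wide intervals, and 4 secondary granule genes lie above 4.

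The order of libraries also differed between stages. With log2 CPM centred per gene across the libraries, the list median was −0.15, 1.27 and 2.22 for the late genes in Gata2+/f, against −1.86, −0.03 and −1.65 in Gata2+/+. For secondary granule genes it was 1.27, 1.70 and 2.46 in Gata2+/f, against −2.67, −0.96 and −1.81 in Gata2+/+. For primary granule genes it was −0.26, 2.21 and 0.24 in Gata2+/f, against −1.46, 0.31 and −0.86 in Gata2+/+. The list medians of late and secondary genes were thus highest in Gata2+/f replicate 11, and that of primary genes in Gata2+/f replicate 9. Not every primary gene followed its median. Ctsc was highest in Gata2+/+ replicate 6, at 327 CPM, and Cst7 in Gata2+/+ replicate 3, at 181 CPM. The order of the late genes was not particular to them. Monocyte markers had a similar one, −0.10, 0.40 and 1.72 in Gata2+/f, against −1.44, 0.07 and −1.35 in Gata2+/+. Between Gata2+/f replicate 7 and Gata2+/+ replicate 5 the median difference in log2 CPM was 2.23 over secondary granule genes, −0.66 over primary granule genes and −0.10 over the late genes, which lay on both sides.

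**Figure D4:**
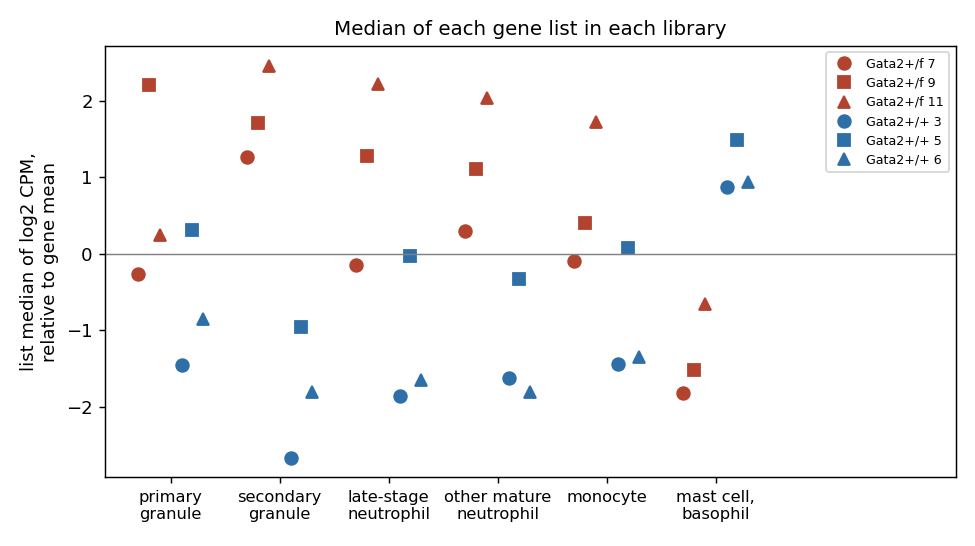
Median over each gene list of log2 CPM relative to each gene's mean, per library, Gata2+/f in red and Gata2+/+ in blue. All Gata2+/f points lie above all Gata2+/+ points for secondary granule genes, whereas for late-stage genes Gata2+/f replicate 7 lies just below Gata2+/+ replicate 5. Gata2+/f replicate 7 also lies below Gata2+/+ replicate 5 for primary granule genes, monocyte markers, and mast cell and basophil markers.

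The stages were compared directly as ratios of 1 late to 1 earlier gene within each library (log2 of CPM plus 0.5), in 4 pairs. Mmp9 to Ltf was −5.44, −4.62 and −3.65 in Gata2+/f, against −2.94, −2.42 and −3.53 in Gata2+/+, so that all 3 Gata2+/f ratios lay below all 3 Gata2+/+ ratios. The difference of means was −1.61 (exact permutation test over 6 libraries, two-sided p = 0.1, the smallest this design allows; adjusted p = 0.4 over the 4 pairs). With 0.1 CPM added in place of 0.5 it was −1.46 (exact permutation p = 0.2), and with 2 CPM it was −1.97 (exact permutation p = 0.1). The separation of the groups thus depends on the value added. Retnlg to Ltf was −5.91, −3.75 and −2.85 in Gata2+/f, against −2.27, −1.76 and −3.37 in Gata2+/+, a difference of −1.70 with overlapping groups (exact permutation p = 0.2, adjusted p = 0.4). Mmp9 to Mpo, the myeloperoxidase of primary granules, was −6.91, −8.90 and −4.72 in Gata2+/f, against −8.02, −8.11 and −8.62 in Gata2+/+, a difference of 1.40 (exact permutation p = 0.4, adjusted p = 0.5). Retnlg to Mpo differed by 1.31 (exact permutation p = 0.5, adjusted p = 0.5). Without Gata2+/f replicate 11 the differences to Mpo were 0.33 for Mmp9 and 0.04 for Retnlg. No ratio passed a threshold of 0.05, which the design cannot reach.

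**Figure D5:**
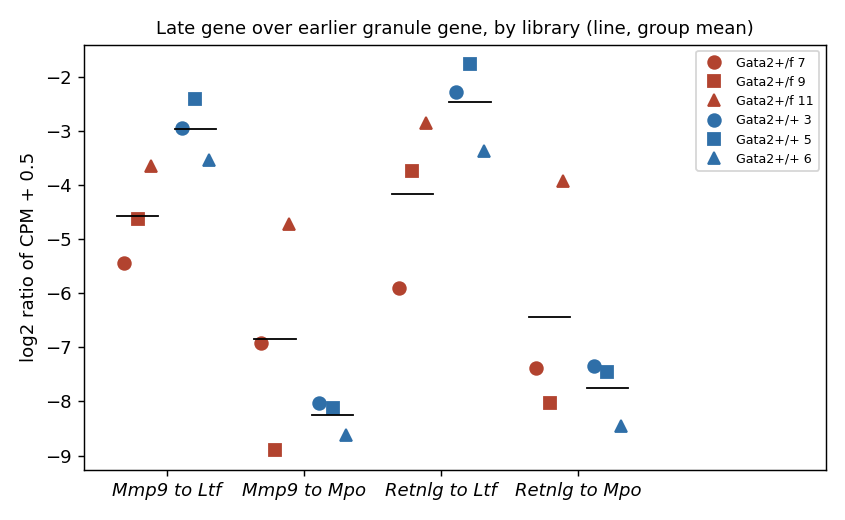
Log2 ratio of a late gene to an earlier granule gene in each library (CPM plus 0.5), Gata2+/f in red and Gata2+/+ in blue, with a line at each group mean. With 0.5 CPM added, the Mmp9 to Ltf ratio is lower in every Gata2+/f library than in any Gata2+/+ library, and the ratios to Mpo are spread most widely in Gata2+/f.

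Other genes of mature neutrophils bear on the label of these 10. Among 22 such genes tested, 21 were positive (median log2 fold change 2.21), against 51.1% of all genes. DESeq2 called 16 of the 22 higher, against 6.16% of all genes. S100a9 and S100a8, the calprotectin subunits, had log2 fold changes of 4.55 and 4.58 (SE 0.57 and 0.59; edgeR adjusted p = 0.0798 for both). Fpr2, a formyl peptide receptor, had 20.6, 13.2 and 28.0 CPM in Gata2+/f, against 1.04, 3.22 and 2.83 CPM in Gata2+/+. Ly6g, the surface marker that defines mouse neutrophils, was detected at low level, 2.49, 1.74 and 6.68 CPM in Gata2+/f, against 0.0800, 0.409 and 0.0779 CPM in Gata2+/+ (log2 4.25, SE 0.92; edgeR adjusted p = 0.0966, DESeq2 adjusted p = 3.13e-05). The sorted tissue is labelled c-kit+, and mature neutrophils do not normally carry Kit.

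Of the marker lists of other cell types edgeR called no gene in any. All 12 monocyte markers were positive (median log2 fold change 1.63), and their summed level was 1283 to 4053 CPM in Gata2+/f, against 592 to 1574 CPM in Gata2+/+. DESeq2 called 5 of the 12 higher, against 6.16% of all genes. Of 10 mast cell and basophil markers 9 were negative, with a summed level of 1230 to 4041 CPM in Gata2+/f, against 7988 to 10083 CPM in Gata2+/+. That list and its sum include Gata2, the targeted gene, and Kit, the sorted marker. DESeq2 called 5 of the 10 lower and 1 higher, against 5.7% and 6.16% of all genes. The 9 eosinophil markers, 4 of 7 tested positive, summed to 58.9 to 94.2 CPM in Gata2+/f, against 129.96 to 182 CPM in Gata2+/+. The direction of this sum was set by Siglecf alone. Il5ra and Ccr3 were also negative, with overlapping groups (log2 −0.74, SE 0.75, and log2 −1.02, SE 0.76). Without Siglecf the sums were 43.1 to 53.6 CPM in Gata2+/f, against 6.56 to 39.1 CPM in Gata2+/+. Ear2, whose groups overlapped, made up a large part of these remaining sums. Siglecf, a surface lectin, had 5.32, 51.1 and 32.8 CPM in Gata2+/f, against 162, 90.9 and 165 CPM in Gata2+/+ (log2 −2.23, SE 0.71; edgeR adjusted p = 0.151, DESeq2 adjusted p = 0.0215). Prg2, the eosinophil major basic protein, had 13.003, 16.8 and 17.4 CPM in Gata2+/f, against 2.66, 2.16 and 2.23 CPM in Gata2+/+ (log2 2.74, SE 0.34; edgeR adjusted p = 0.0798, DESeq2 adjusted p = 1.09e-17). Epx, eosinophil peroxidase, had 0.509, 0.351 and 2.15 CPM in Gata2+/f, against 0.09996, 0 and 0.0779 CPM in Gata2+/+ (edgeR adjusted p = 0.131, DESeq2 adjusted p = 0.00737). B cell markers summed to 15.7 to 24.3 CPM in Gata2+/f, against 3.46 to 9.65 CPM in Gata2+/+, with 5 of 5 tested positive. T and NK cell markers summed to 22.2 to 107 CPM in Gata2+/f, against 10.6 to 42.6 CPM in Gata2+/+, but Nkg7 made up most of each sum. Without Nkg7 they summed to 1.504 to 4.18 CPM in Gata2+/f, against 0.4998 to 1.46 CPM in Gata2+/+, with Trac at 2 counts or fewer in every library. DESeq2 called 1 of 5 tested T and NK cell markers and 1 of 5 tested B cell markers higher, and 0 of 8 erythroid markers. Erythroid markers summed to 1111 to 6319 CPM in Gata2+/f, against 6189 to 10338 CPM in Gata2+/+, with 3 of 8 positive. Il1b and Trem1 are also expressed by monocytes. The part of these other cells in the values of the late neutrophil genes was not tested.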

How the data were processed

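Libraries are poly-A selected, made with a stranded kit from RNA of sorted c-kit+ marrow cells, per the labels' protocols. The deposited values are RSEM expected counts per Ensembl gene, 1 column per library and not normalized; GRCm38, STAR 2.5.4a, RSEM 1.3.0 and CASAVA 1.8.2 are listed in the submitters' processing notes. Annotation release and strand setting are not given in the sources used here. Of the values 11.7% were not whole (tolerance 1e-06). No library pair was a duplicate (chi-square per gene 247 or more).

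Symbols, positions and exon lengths came from GENCODE M21, which held 97.5% of the IDs. Counts were rounded, filtered with filterByExpr (minimum count 10, leaving 15432 genes) and scaled by TMM. Gata2+/f was compared with Gata2+/+ by the quasi-likelihood test of edgeR 4.0.16 (R 4.3.3; two-sided, no covariate, legacy form), adjusted over all tested genes, threshold 0.05; intervals are 95%. DESeq2 1.42.0 gave no adjusted p for 994 genes, which stay uncalled. List medians use log2 CPM with a prior count of 2. CPM errors are SDs, and values per count cover counting error only.

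Named are all 10 genes, up to 4 with the smallest p from other lists, and the 8 most alike, of which 1 is not reported here; other names were chosen after their values were seen. The members and lists were chosen with earlier results of these data known. Alternatives were other tools, scalings and filters, other values added in the ratios (0.1 and 2 CPM), and leaving out each library.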

Additional observations from a re-analysis of the deposited data

How the results depend on the processing

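No paired analysis was possible because the groups share no replicate number. Each of the 10 genes kept a positive log2 fold change under every alternative run. The count of these genes called was 0 except with DESeq2, which called 5. The median of their log2 fold changes stayed between 1.59 and 2.56 apart from 3.61 without Gata2+/+ replicate 5, and leaving out each library in turn it ran from 1.59 to 3.61. The number with groups that do not overlap ran from 4 to 10 on leaving out each library. Over all genes, the share with Gata2+/f above then ran from 17.9% to 22.9%, against 13.1% with all 6 libraries. Over all genes, edgeR called 0 (unadjusted p under 0.05 for 1718 with a positive and 1768 with a negative difference); DESeq2 called 1829, limma voom 9, the newer edgeR form 32 and no filter beyond 1 count 19, and leaving out each library gave 0 to 66. The cause of these changes was not tested. With upper quartile factors all genes had a median log2 difference of 0.11 and the 10 genes one of 2.17. The ratio differences kept their sign: Mmp9 to Ltf ran from −2.07 to −1.18, Retnlg to Ltf from −2.37 to −0.84, Mmp9 to Mpo from 0.33 to 2.42 and Retnlg to Mpo from 0.04 to 2.09. Depth limits Stfa2, with 3 counts in its lowest library.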
